A study of Mus musculus with 6 samples.

Results

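Cytochrome P450 enzymes (P450s) and the enzymes that conjugate their products were followed here in cortical astrocytes of the upper and the deep layers. The members were all rows of the deposited expression table whose symbol is that of a P450, of a UDP-glucuronosyltransferase of families 1 to 3, of a cytosolic sulfotransferase, of an epoxide hydrolase or of Por, except Cyp46a1, Cyp51 and Cyp26b1. The rule gave 130 of 43383 rows. RNA-seq was performed on GFP-positive cells sorted from the neocortex (somatosensory area) of 4-week-old male mice carrying the Aldh1l1-eGFP transgene, which all libraries share and in which the Aldh1l1 promoter drives GFP in astrocytes. Upper-layer astrocytes (ULAs) came from layers II–IV and deep-layer astrocytes (DLAs) from layers V and VI, with 3 libraries per layer, 1 from each of 3 brains, and the labels name no treatment. Layer I, the meninges, the corpus callosum and part of layers IV and V were discarded at dissection. Whether any of their cells remained in either group was not tested.

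P450s are haem enzymes that insert an oxygen atom into sterols, fatty acids, retinoids and foreign compounds. Those of the endoplasmic reticulum take electrons from a shared reductase, the product of Por, whereas those of mitochondria take them from adrenodoxin. Epoxide hydrolases open the epoxides that some P450s form, and glucuronosyltransferases and sulfotransferases attach polar groups that make the products soluble. In the brain, P450 pathways are known for turnover of cholesterol and neurosteroids and for lipid mediators made from arachidonic acid, of which astrocytes are a source.

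The cysteine that holds the haem lies in a short signature near the end of P450s (in most, phenylalanine, glycine, cysteine and glycine at fixed spacing). The 30 bases that code for it were read from GENCODE transcripts on GRCm38 for the 14 P450 rows that passed the filter on low values described below, and were found in 13 of them (Cyp20a1 had no match to the pattern). They are shown for the sterol P450s and for members of the CYP2J and CYP4F families. Cyp27a1 and Cyp2j9, which passed the layer comparison below, are among these genes, and the reads of 36 bases must tell close relatives apart. Capitals mark the codon of the haem-binding cysteine.
Cyp27a1: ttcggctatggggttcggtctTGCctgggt
Cyp7b1: tttggactcggaacaagcaaaTGTccaggg
Cyp2j9: ttctcaatgggaaaacgtgctTGTcttgga
Cyp2j6: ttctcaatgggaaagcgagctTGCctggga
Cyp4f15: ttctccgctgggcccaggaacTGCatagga
Cyp4f14: ttctcggcgggacccaggaacTGCatagga
Cyp4f13: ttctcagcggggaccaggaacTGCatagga
On GRCm38 the stretch of Cyp27a1 is in exon 8, at chr1:74737320-74737349 on the plus strand, and that of Cyp7b1 in exon 6, at chr3:18072634-18072663 on the minus strand. The other stretches are each split by an intron. They span exons 8 and 9 of Cyp2j9 (chr4:96568883-96571944, minus strand) and of Cyp2j6 (chr4:96518186-96523712, minus strand). For the CYP4F genes they span exons 12 and 13 of Cyp4f15 (chr17:32702398-32702801, plus strand), exons 11 and 12 of Cyp4f14 (chr17:32905666-32906065, minus strand) and exons 12 and 13 of Cyp4f13 (chr17:32924942-32925340, minus strand). Any pair of the 3 CYP4F stretches shares 27 of 30 bases, and the stretches of Cyp2j9 and Cyp2j6 share 26 of 30.
Over whole transcripts, shared exact stretches of 36 bases were counted, which is not a measure of identity base by base. Of the distinct 36-base stretches of Cyp27a1 and Cyp7b1, 0% occur in a transcript of another gene, and for Cyp2j9 the share was 2.25%, with 0% shared with Cyp2j6. For Cyp4f15, Cyp4f14 and Cyp4f13 the shares were 5.81%, 5.95% and 6.46%. The share was 34.3% for Cyp4f16, most of it with Cyp4f37, so the level of Cyp4f16 is uncertain to that extent.

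Levels are given in RPKM as the authors deposited them, which means reads per kilobase of mRNA scaled to the number of mapped reads, so that genes of different length can be set side by side. The depth of the libraries, as read from the steps of the values, was 19.7 to 29.6 M reads. Astrocyte markers were abundant in both layers (10787 to 11474 RPKM summed over 10 markers in ULAs and 9811 to 10778 in DLAs), and 1 of the 10, Gfap, passed as lower in ULAs (log2 ratio −0.93, adjusted p = 0.00556, limma), with 3 higher and 2 lower at an unadjusted p under 0.05. Markers of oligodendrocyte precursors (0.63 to 1.14 RPKM summed over 6 genes) and endothelial cells (0.84 to 6.78 over 10 genes) were near 0, and those of neurons summed to at most 12.01 RPKM. Oligodendrocyte markers were present and differed between the layers, as given beside Cyp27a1. In bulk RNA, a lower number of cells of a type and less RNA per cell cannot be told apart.

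Rows with a mean of at least 1 RPKM over the 6 libraries were transformed as log2(RPKM + 1) and compared between the layers by limma, using the brain as a block and adjustment by the Benjamini-Hochberg method over all 13999 rows tested. The log2 ratios below are ULA over DLA on this scale (positive where ULAs were higher), which understates the change of genes with low RPKM, and SE is the standard error of a ratio. A permutation test over 3 pairs cannot give a p under 0.25, so p-values come from this fit only. Of the 130 members, 27 reached the filter, 57 were above 0 in some library but under the filter, and 46 were listed at 0 in all 6 libraries. The 27 rows stand for 20 loci, because 8 of them are first-exon variants of the Ugt1a locus.

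Of the 27 rows tested, 2 passed at an adjusted p under 0.05, both lower in ULAs (Cyp27a1 and Cyp2j9), while 0 passed as higher in ULAs. Over all rows tested, 0.914% passed as lower in ULAs and 0.714% as higher (1.63% in either direction). The share in either direction was 7.95% without brain 3 and 0.293% without the brain in the model. At an unadjusted p under 0.05 in limma, 4 members were lower (Cyp27a1, Cyp2j9, Ephx2 and Cyp4f13; 10.8% of all rows) and 3 were higher (Cyp4f15, Ephx1 and Cyp4v3; 5.64% of all rows). Over all rows, 43.9% of the calls were higher in ULAs, and 57.3% were after quantile normalization, under which 2 members passed in each direction. All DLA values were above all ULA values for 6 members (9.27% of all rows), and all ULA values were above all DLA values for 3 (6.59% of all rows). The ratio was below 0 for 16 members and for 55% of all rows. The median log2 ratio of the members tested was −0.08, against −0.03 for all rows tested, and 25 of the 27 members lay within 0.5 of 0, as did 95.9% of all rows. With the 8 Ugt1a rows left out, the median of the other 19 was 0.05.

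**Figure D1:**
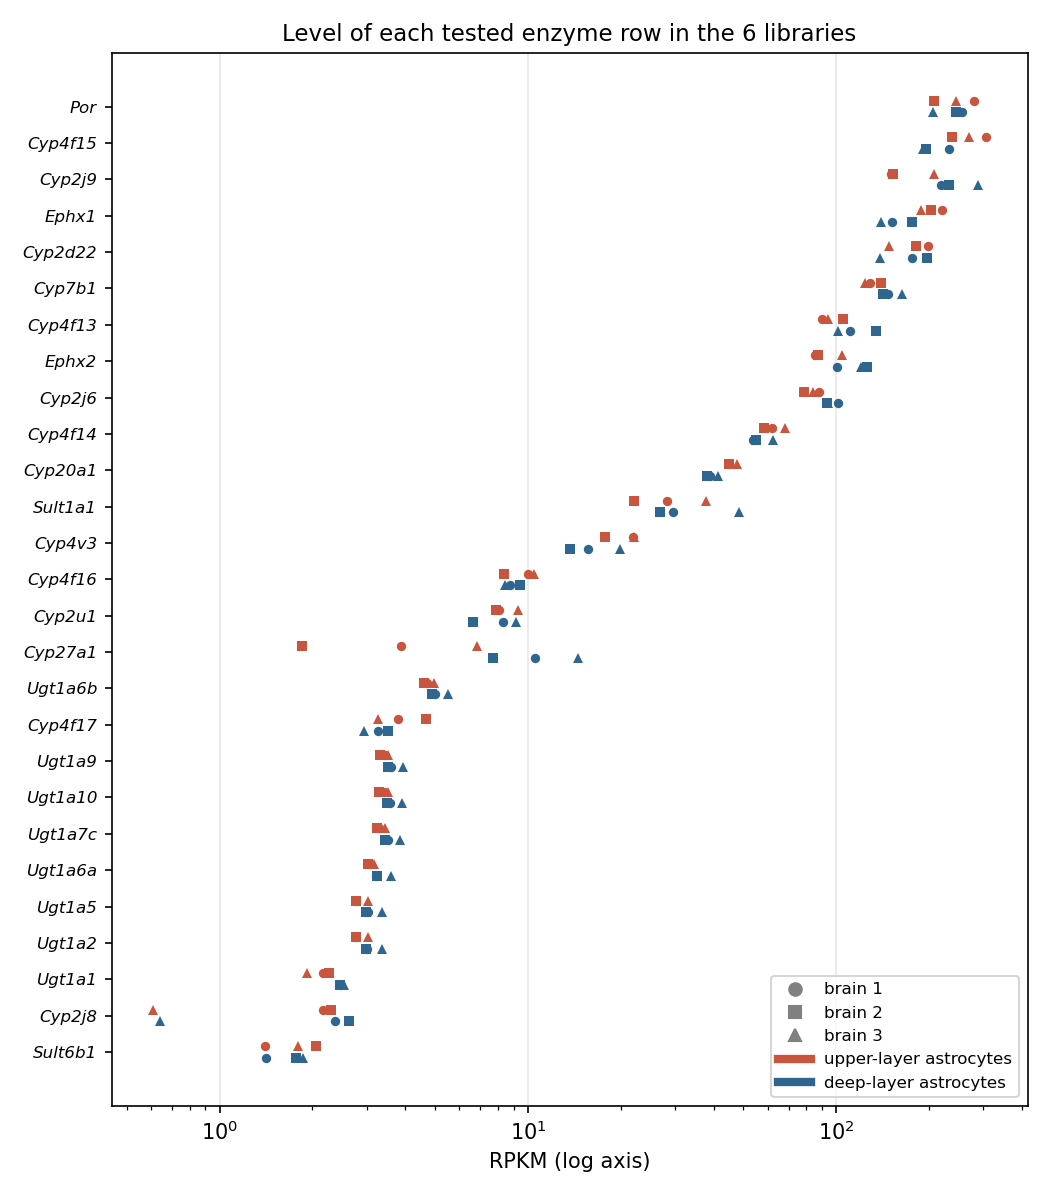
Level of the 27 tested enzyme rows, in RPKM on a log axis, with 1 symbol per library (red, ULAs; blue, DLAs; circle, square and triangle, brains 1, 2 and 3). Por, Cyp4f15 and Cyp2j9 are the most abundant, and the red and blue symbols of Cyp27a1 stand farther apart than those of any other row.

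P450 mRNA was abundant in these cells, and its sum differed little between the layers, although each DLA library lay above each ULA library. The RPKM of all P450 members together was 1121, 1044 and 1098 in the ULAs of brains 1, 2 and 3 and 1130, 1132 and 1138 in the DLAs, that is, 1088 ± 39.8 (SD, n = 3) against 1133 ± 4.21. Between 76.9% and 79.6% of this sum came from 5 genes in every library, namely Cyp4f15, Cyp2j9, Cyp2d22, Cyp7b1 and Cyp4f13. The sums of the CYP4F and CYP2J families are given as a description, since Cyp4f15 and Cyp2j9 were the largest part of each and no CYP4F row passed the test. CYP4F members summed to 471.5, 414.8 and 445.7 RPKM in ULAs and to 407.8, 397.6 and 366.5 in DLAs, so that the lowest ULA library lay above the highest DLA library. CYP2J members went the other way, with 241.4, 234.3 and 292.0 RPKM in ULAs against 322.8, 328.4 and 383.2 in DLAs, also without overlap. These sums were not tested.

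**Figure D2:**
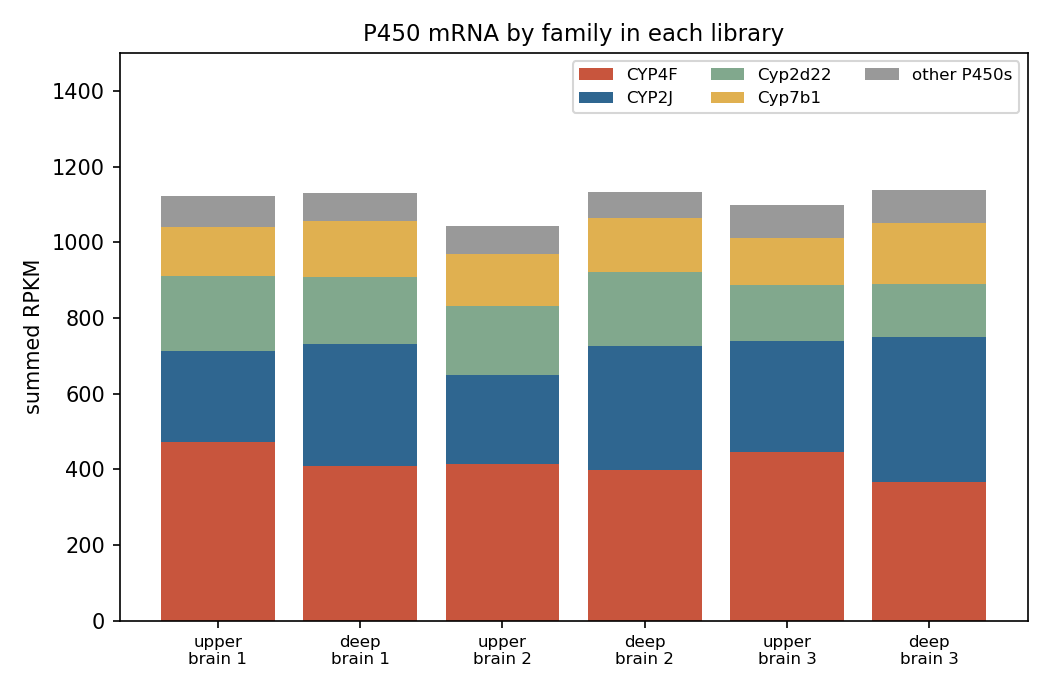
Summed RPKM of the P450 members in each library (bars from 0, stacked by family: CYP4F, CYP2J, Cyp2d22, Cyp7b1 and other P450s; bars in pairs of upper and deep layers for brains 1 to 3). The total stays between 1044 and 1138 RPKM, while the CYP4F part is taller in the upper-layer bar and the CYP2J part taller in the deep-layer bar of each brain.

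Por encodes the reductase that passes electrons from NADPH to the P450s of the endoplasmic reticulum. It had the highest mean of all members over the 6 libraries (239.8 RPKM, against 238.4 for Cyp4f15). In ULAs the mean of Cyp4f15 was higher (271.0 against 244.4), and in DLAs that of Cyp2j9 was (246.4 against 235.1). The RPKM of Por was 280.5, 207.9 and 244.9 in the ULAs of brains 1, 2 and 3 and 255.1, 244.8 and 205.3 in the DLAs. The layers overlapped and the direction differed between brains, with ULAs higher in brains 1 and 3 and lower in brain 2. The log2 ratio was 0.05 (adjusted p = 0.857 in limma, SE 0.11), with a 95% interval of −0.20 to 0.30. The summed RPKM of the P450s was between 4.00 and 5.02 times that of Por in ULAs and between 4.43 and 5.54 times in DLAs, again overlapping.

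Among the sterol and steroid P450s, Cyp27a1 and Cyp7b1 were the rows that reached the filter, of 11 members. Cyp27a1, which has 9 exons on chromosome 1 from 74760148 to 74784464 (coordinates as the table gives them; its build is not stated there, and the submitters' processing notes name mm9), encodes the mitochondrial sterol hydroxylase that oxidises the side chain of cholesterol. Its RPKM was 3.87, 1.85 and 6.83 in the ULAs of brains 1, 2 and 3 and 10.5, 7.69 and 14.5 in the DLAs. Every DLA value lay above every ULA value, and brain 2 was lowest and brain 3 highest in both layers. The means were 4.18 ± 2.50 (SD, n = 3) for ULAs and 10.9 ± 3.44 for DLAs, with a log2 ratio of −1.28 (adjusted p = 0.00313 in limma, SE 0.15). The upper/deep ratio was 0.360 ± 0.115 (SD of 3 brains), and each ULA value came from 90 to 345 reads and each DLA value from 286 to 812. The call depended on the pairing, because without the brain in the model the adjusted p was 0.286. With no filter on low RPKM it was 0.301, the highest over the alternatives. The lowest, 1.75e-07, came from the fit without brain 3. That fit had a larger SE (0.18) and called 7.95% of all rows, against 1.63% in the main fit.

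Oligodendrocyte markers moved with Cyp27a1. The summed RPKM of 9 such markers (Mbp, Mog, Mag, Mobp, Cnp, Cldn11, Ermn, Opalin and Aspa) was 92.35, 88.36 and 131.0 in the ULAs of brains 1, 2 and 3 and 154.3, 177.8 and 176.4 in the DLAs. Of the 8 markers tested, 6 passed as lower in ULAs (adjusted p under 0.05, limma), with a median log2 ratio of −0.98 over the 8, and none of the 9 was at 0 in all libraries. Each DLA sum lay above each ULA sum, and within the ULAs both measures were highest in brain 3. At nearly the same marker sum, the DLAs of brains 2 and 3 (177.8 and 176.4) had 7.69 and 14.5 RPKM of Cyp27a1. Likewise, the ULAs of brains 1 and 2 (92.35 and 88.36) had 3.87 and 1.85. Most of this sum was Cnp, Mbp and Aspa, which were lower in the DLAs of brain 3 than of brain 2. Mog, Mag, Mobp, Cldn11, Ermn and Opalin were higher there, as Cyp27a1 was (Opalin 6.28 against 2.73, Mog 12.95 against 9.14). Between the ULAs of brains 1 and 2, single markers went either way. The part of oligodendrocyte RNA in the difference of Cyp27a1 was not tested. Blood cell markers (4 genes in the table) also moved with the layer. Their sum was 0.94 to 1.79 RPKM in ULAs and 15.35, 16.02 and 76.71 in the DLAs of brains 1, 2 and 3. The globin rows Hbb-b1, Hbb-b2 and Beta-s, 3 of the 4, were lower in ULAs at an adjusted p under 0.05 (limma). Hbb-b1 and Hbb-b2 had nearly the same value in every library, so these rows may not be separate signals. Alas2 did not pass (adjusted p = 0.612, limma). Meningeal fibroblast markers (8 genes) summed to 3.16 to 4.10 RPKM in ULAs and 4.98 to 6.29 in DLAs, and none of them passed (limma; 1 was lower at an unadjusted p under 0.05). Of the pericyte and smooth muscle markers, Rgs5 passed as higher in ULAs (0.77, adjusted p = 0.0455, limma), while the sum over the 9 genes overlapped (16.08 to 23.24 against 12.01 to 19.17 RPKM). The part of these cell types in the difference was likewise not tested. The sum over 9 microglial markers had the opposite order, at 14.27 to 15.72 RPKM in ULAs and 9.37 to 13.14 in DLAs. Most of it was P2ry12, at 11.63 to 12.6 RPKM in ULAs and 7.76 to 10.22 in DLAs. P2ry12 was the only microglial marker tested, and it did not pass in limma (unadjusted p under 0.05). The means of Trem2 and C1qa were higher in DLAs, and those of the remaining markers were higher in ULAs.

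**Figure D3:**
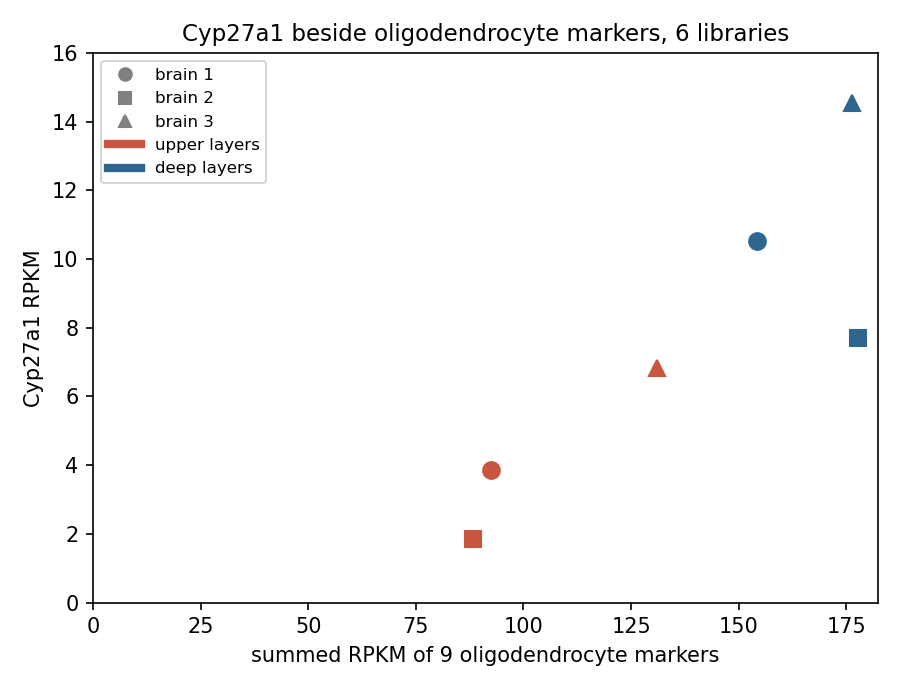
RPKM of Cyp27a1 (vertical axis) against the summed RPKM of 9 oligodendrocyte markers (horizontal axis) in the 6 libraries (red, upper layers; blue, deep layers; symbols, brains). The 3 ULA libraries lie lower on both axes than the 3 DLA libraries. The DLAs of brains 2 and 3 lie at marker sums of 177.8 and 176.4 with Cyp27a1 at 7.69 and 14.5. Most of the sum is Cnp, Mbp and Aspa, and the other markers were higher in the DLAs of brain 3 than of brain 2.

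Cyp7b1, on chromosome 3 from 17971950 to 18143338, encodes the oxysterol hydroxylase that acts on side-chain oxidised cholesterol and on neurosteroids. It was much more abundant than Cyp27a1, at 128.8, 139.3 and 124.1 RPKM in the ULAs and 147.7, 142.1 and 162.8 in the DLAs of brains 1, 2 and 3. The layers did not overlap, and brain 2 had the smallest difference. The log2 ratio of −0.20 (SE 0.10) did not pass (adjusted p = 0.353, limma), with a 95% interval from −0.43 to 0.02. Of the other 9 members of the group, 6 were listed at 0 in all libraries, among them the bile acid enzyme Cyp7a1 and aromatase, Cyp19a1, and the highest of the rest, Cyp39a1, had a mean of 0.0767 RPKM.

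In the CYP2J family, whose enzymes oxidise arachidonic acid, Cyp2j9 was the abundant member and the second that passed. Cyp2j9 has 9 exons on chromosome 4 from 96235120 to 96258176, and its product hydroxylates arachidonic acid in mouse brain. Its RPKM was 151.0, 153.2 and 207.2 in the ULAs of brains 1, 2 and 3 and 218.5, 232.4 and 288.3 in the DLAs. The groups did not overlap, and brain 3 was highest in both layers. The log2 ratio was −0.53 (adjusted p = 0.0182 in limma, SE 0.09), with means of 170.5 ± 31.8 (SD, n = 3) and 246.4 ± 36.9 RPKM. The upper/deep ratio varied little between brains, at 0.690 ± 0.0297. The oligodendrocyte and blood cell marker sums given beside Cyp27a1 were also lower in each ULA library than in each DLA library. The part of these cell types in the difference of Cyp2j9 was not tested. The call for Cyp2j9 was lost without brain 1 (adjusted p = 0.162) and in limma without the trend (0.0871). It was also lost without the brain in the model (0.328) and with no filter (0.322). The adjusted p of all alternatives ran from 0.00148 (without brain 3) to 0.328.
Cyp2j6, a relative of Cyp2j9 that is also on chromosome 4 (96182829 to 96220342), had the same direction in all 3 brains. It was at 88.2, 78.6 and 84.1 RPKM in ULAs and at 101.5, 93.2 and 93.8 in DLAs, without overlap. Its log2 ratio of −0.20 (SE 0.09) did not pass (adjusted p = 0.325, limma; 95% interval −0.41 to 0.01). Cyp2j9 was between 1.71 and 2.46 times as abundant as Cyp2j6 in ULAs and between 2.15 and 3.07 times in DLAs, and this ratio was higher in DLAs within each brain.
Cyp2j8 stood out for its spread between brains. It was at 2.17 and 2.30 RPKM for brains 1 and 2 in ULAs and at 2.37 and 2.63 in their DLAs, but at 0.61 and 0.64 in the ULAs and DLAs of brain 3. The brain 3 values rest on 25 and 29 reads, against 79 to 96 reads in the other 4 libraries. Its log2 ratio between layers was −0.08 (adjusted p = 0.826, limma).

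**Figure D4:**
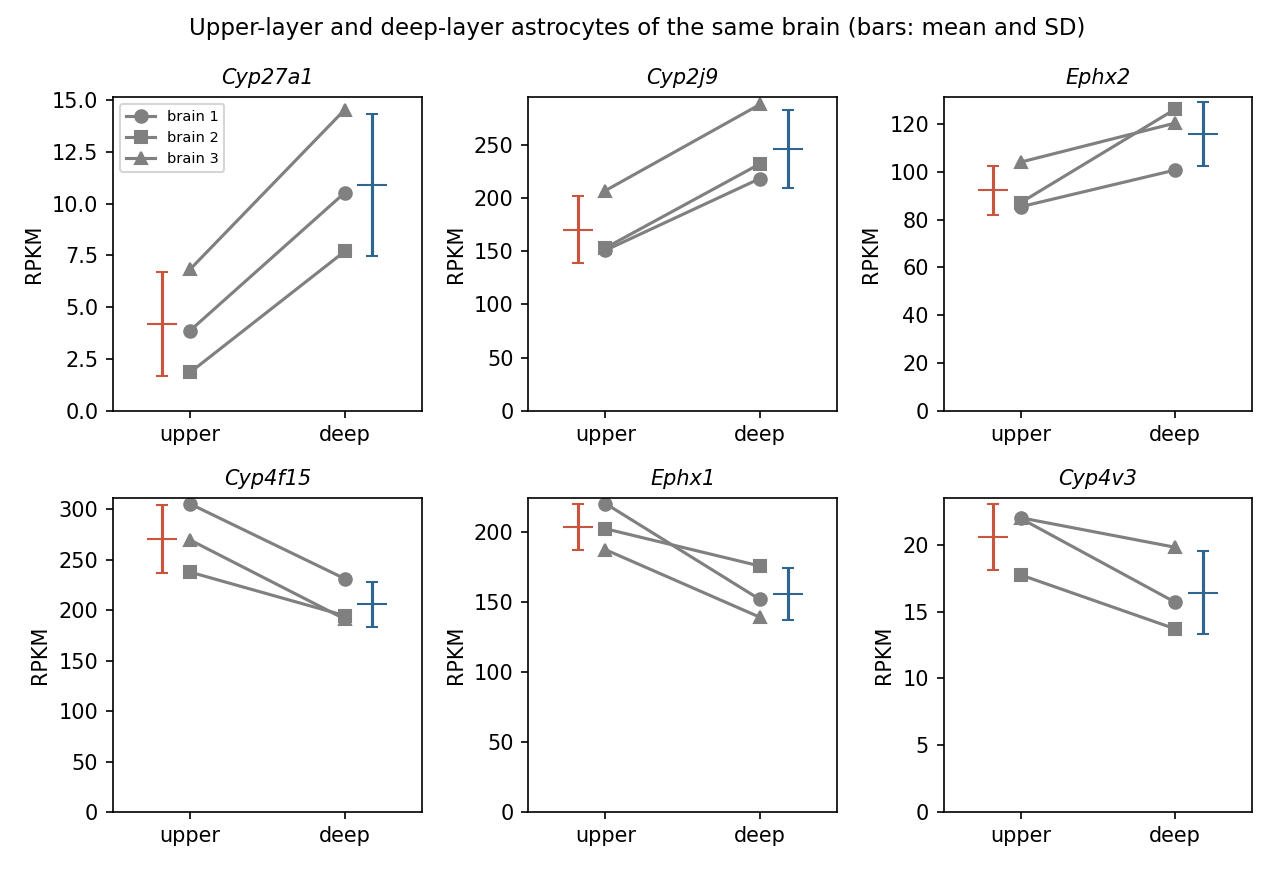
RPKM of Cyp27a1, Cyp2j9, Ephx2, Cyp4f15, Ephx1 and Cyp4v3 in ULAs and DLAs, with grey lines joining the libraries of 1 brain and coloured bars for the mean and SD of each layer (n = 3, axes from 0). Cyp27a1, Cyp2j9 and Ephx2 are higher in the deep layers in all 3 brains, and Cyp4f15, Ephx1 and Cyp4v3 are higher in the upper layers in all 3.

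The other CYP2 rows that reached the filter were Cyp2d22 and Cyp2u1. Cyp2d22, a CYP2D enzyme, was at 198.9, 181.0 and 148.4 RPKM in ULAs and 176.6, 196.3 and 139.0 in DLAs of brains 1, 2 and 3. The spread between brains, with brain 3 lowest in both layers, exceeded the difference between layers (log2 ratio 0.05, SE 0.10, adjusted p = 0.847, limma). Cyp2u1, a fatty acid hydroxylase, was at 7.86 to 9.30 RPKM in ULAs and 6.63 to 9.15 in DLAs (log2 ratio 0.06). Exons of Cyp2u1 overlap those of an antisense row over 548 bases, and whether strand was used in counting is not given in the sources used here, so its level is uncertain. Of the 45 members of the CYP2 group, 17 were listed at 0 in all libraries and 23 more stayed under the filter.

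The CYP4 group holds the hydroxylases that act on the end of fatty acids, leukotrienes and related lipids, and 6 of its 15 members reached the filter. Cyp4f15, with 13 exons on chromosome 17 from 32822604 to 32840294, was at 305.5, 237.9 and 269.7 RPKM in ULAs (brains 1, 2 and 3) and at 231.4, 194.8 and 191.4 in the DLAs. All ULA values were above all DLA values. The log2 ratio of 0.39 (SE 0.09) had an adjusted p of 0.0776 in limma, and the gene passed under quantile normalization (0.0188), without brain 2 (0.0365) and, barely, after a correction for mRNA length (0.04999), within a range of 0.0188 to 0.563.
Cyp4f13 went the other way, at 90.1, 105.5 and 94.1 RPKM in ULAs and 110.6, 134.9 and 101.0 in DLAs, lower in ULAs in each brain but with overlap between brains. Its log2 ratio was −0.25 (adjusted p = 0.250 in limma, SE 0.10; 95% interval −0.47 to −0.03). The ratio of Cyp4f15 to Cyp4f13 was 3.39, 2.25 and 2.87 in ULAs and 2.09, 1.44 and 1.89 in DLAs, so that the groups did not overlap and the ratio was higher in ULAs within each brain.
Cyp4f14, a leukotriene hydroxylase, was at 62.0, 58.3 and 68.1 RPKM in ULAs and 53.7, 54.9 and 62.5 in DLAs. Its level was higher in ULAs in 3 of 3 brains, by a log2 ratio of 0.14 (adjusted p = 0.514 in limma, SE 0.10; 95% interval −0.08 to 0.35), and the layers overlapped. Cyp4v3, which hydroxylates fatty acids and whose human counterpart is mutated in a crystalline dystrophy of the retina, was at 22.0, 17.8 and 22.0 RPKM in ULAs and 15.7, 13.7 and 19.8 in DLAs. It was also higher in ULAs in each brain, with overlap between brains (log2 ratio 0.32, SE 0.11, adjusted p = 0.211, limma; 95% interval 0.06 to 0.57). Cyp4f17 was at 3.79, 4.67 and 3.27 RPKM in ULAs and 3.26, 3.51 and 2.95 in DLAs (log2 ratio 0.20, adjusted p = 0.493). Cyp4f16 had a log2 ratio of 0.10 at a mean of 9.25 RPKM.

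Cyp20a1, a P450 with no established substrate, is the only other P450 that reached the filter. Its values were tight, at 44.85, 44.72 and 47.75 RPKM in ULAs and 39.02, 38.09 and 41.21 in DLAs, without overlap, and the upper/deep ratio was 1.16 ± 0.0124 (SD of 3 brains). The log2 ratio of 0.21 (SE 0.10) did not pass (adjusted p = 0.323, limma), with a 95% interval of −0.01 to 0.43.

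The epoxide hydrolases Ephx1 and Ephx2 had opposite directions, and neither passed the test. Ephx1, with 9 exons on chromosome 1 from 182919687 to 182947626, encodes the microsomal enzyme, known for epoxides of foreign compounds. It was at 220.7, 202.7 and 187.7 RPKM in ULAs (brains 1, 2 and 3) and at 152.0, 176.0 and 139.3 in the DLAs, without overlap. Its log2 ratio was 0.39 (SE 0.10) with an adjusted p of 0.0978 in limma, and it passed under quantile normalization (0.0294) and without brain 2 (0.0317), within a range of 0.0294 to 0.763.
Ephx2, with 21 exons on chromosome 14 from 66703209 to 66743359, encodes the soluble enzyme, which hydrolyses the epoxides that P450s make from arachidonic acid. It was at 85.4, 87.1 and 104.1 RPKM in ULAs and 100.7, 126.2 and 120.4 in DLAs, lower in ULAs in each brain with overlap between brains. Its log2 ratio was −0.33 (adjusted p = 0.163 in limma, SE 0.10; 95% interval −0.56 to −0.09), and it passed without brain 3 (adjusted p = 0.0455, within a range to 0.617). The ratio of Ephx1 to Ephx2 was 2.58, 2.33 and 1.803 in ULAs and 1.51, 1.39 and 1.16 in DLAs, so that every ULA value lay above every DLA value. This ratio and the other ratios between members were formed with the values in view and were not tested. Ephx4 and Ephx3 stayed under the filter, with Ephx4 at a mean of 0.545 RPKM.

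**Figure D5:**
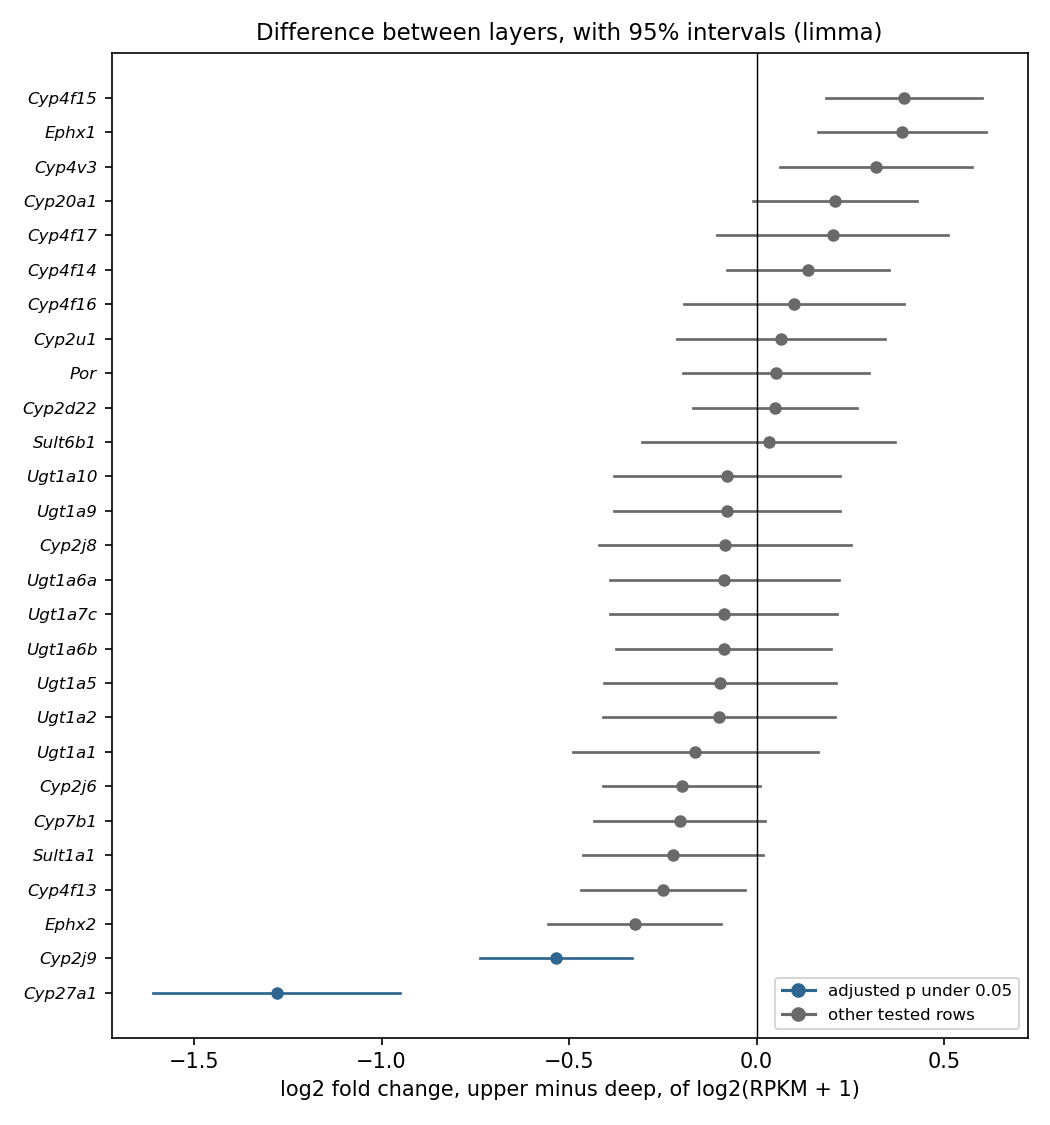
Log2 ratio (upper minus deep, on the log2(RPKM + 1) scale) of the 27 tested rows with 95% intervals from limma, sorted, with rows at an adjusted p under 0.05 in blue. Cyp27a1 (−1.28) and Cyp2j9 (−0.53) stand to the left of 0, Cyp4f15 (0.39) and Ephx1 (0.39) lie farthest to the right, and the 8 Ugt1a rows lie together near 0.

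Glucuronosyltransferase mRNA was low and alike in the layers. Of 20 members, the 8 that reached the filter all belong to Ugt1a, a locus on chromosome 1 in which alternative first exons are joined to common last exons. The common exons make up 2316 bases of each row except Ugt1a6b, which shares 1312 bases with the others, so that the same reads can count for all rows and the 8 values were taken as 1 signal. Their means over the 6 libraries ran from 2.31 RPKM for Ugt1a1 to 4.95 for Ugt1a6b. All 8 were lower in ULAs in 3 of 3 brains, by log2 ratios between −0.16 and −0.08, with adjusted p-values of 0.620 to 0.816 (limma). The interval of Ugt1a6b, the row with the highest level, ran from −0.38 to 0.20. An antisense row with a mean of 8.94 RPKM overlaps these exons, by 922 bases for Ugt1a1. Of the Ugt2 and Ugt3 members, 9 were listed at 0 throughout and the highest of the other 3, Ugt3a1, had a mean of 0.0217 RPKM.

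Sult1a1, which sulfates phenols, was the abundant sulfotransferase. It was at 28.4, 22.1 and 37.8 RPKM in ULAs (brains 1, 2 and 3) and at 29.6, 26.7 and 48.2 in the DLAs. Brain 3 was highest and brain 2 lowest in both layers, and within each brain the ULAs were lower. The log2 ratio was −0.22 (adjusted p = 0.340 in limma, SE 0.11; 95% interval −0.46 to 0.02). Of its 36-base stretches, 11.3% occur in transcripts of other genes, most of them in Gm6939. Sult6b1 had a mean of 1.72 RPKM and a log2 ratio of 0.03 (adjusted p = 0.940). Of the other 16 sulfotransferases, 4 were at 0 in all libraries, and Sult4a1, which neurons express, was at 0.21 to 0.75 RPKM.

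No member of the CYP1 and CYP3 families, which oxidise foreign compounds in liver, and none of those for vitamin D and retinoic acid reached the filter. Of the 10 CYP1 and CYP3 members, 3 were at 0 in all libraries, and Cyp1b1 was the highest at a mean of 0.293 RPKM. Of the 5 members for vitamin D and retinoic acid, 3 were at 0 and the highest, Cyp27b1, had a mean of 0.0250 RPKM.
Among the 57 members above 0 but under the filter, 3 had all ULA values above all DLA values and 1 had the reverse, against 3.95% and 2.6% of all 13964 rows in this range. The next genes were chosen for mention after their values were seen. Cyp1b1 was at 0.53, 0.27 and 0.49 RPKM for ULAs, on 35 to 67 reads, against 0.14, 0.12 and 0.21 for DLAs, on 12 to 32 reads. Sult5a1 was at 0.37, 0.33 and 0.41 in ULAs and at 0.12, 0.12 and 0.11 in DLAs, which is 10 to 13 reads against 3 or 4. Cyp2j12, another CYP2J member that shares 0.98% of its 36-base stretches with Cyp2j9, was at 0, 0.05 and 0.01 in ULAs (at most 2 reads) and at 0.32, 0.15 and 0.44 in DLAs (6 to 25 reads). In the fit with no filter their adjusted p-values were 0.421, 0.339 and 0.421 (limma).

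Genes on which these enzymes depend did not pass the test in either direction. Of 68 genes in 5 lists, 66 were in the table and 51 were tested, and 0 passed at an adjusted p under 0.05 in limma, while 2 were higher and 5 lower in ULAs at an unadjusted p under 0.05, beside 5.64% and 10.8% of all rows. Named here are the most abundant gene of each list and, after their values were seen, Fdxr, Alas1, Ahr, Hsd3b7 and Ch25h. Mitochondrial P450s such as Cyp27a1 take electrons from adrenodoxin, Fdx1, the highest of the electron transfer list (10 tested genes, median log2 ratio −0.02). Fdx1 was at 36.1, 37.8 and 47.8 RPKM in ULAs against 38.6, 43.5 and 49.7 for DLAs, and the ratio was −0.12 (adjusted p = 0.605). Adrenodoxin reductase, Fdxr, had a ratio of −0.12 (adjusted p = 0.673). The haem list (12 tested genes) had a median of −0.19, with the penultimate enzyme of haem synthesis, Ppox, at 64.0 ± 5.97 RPKM in ULAs and 64.3 ± 9.22 for DLAs (SD, n = 3). Alas1, the first enzyme of that pathway, stood at 51.8 ± 6.26 and 56.7 ± 2.83 RPKM.
Ugp2, which makes the sugar precursor for glucuronidation, was the highest of the list for conjugation cofactors (12 tested genes, median −0.01) at 207.2 ± 29.1 and 227.6 ± 13.9 RPKM. The highest of the list of receptors and regulators that control P450 genes (11 tested genes, median −0.11) was Nfe2l2, with a ratio of −0.28 (adjusted p = 0.221). The xenobiotic receptor Ahr was under the filter, at 1.47, 0.43 and 2.63 RPKM in ULAs against 0.26, 0.03 and 0.86 for DLAs, higher in the upper layers of each brain.
In the list for oxysterol and eicosanoid handling (6 tested genes, median −0.16), Insig1, a sterol sensor partner, was highest. It differed more between brains than between layers, at 110.2, 36.8 and 126.6 RPKM in ULAs against 140.5, 40.8 and 145.5 for DLAs (adjusted p = 0.278). Hsd3b7, which acts on the products of Cyp7b1, was at 50.9 ± 6.63 RPKM and 55.5 ± 7.27 (ratio −0.12, adjusted p = 0.629). Ch25h, the cholesterol hydroxylase that is not a P450, was listed at 0 in all 6 libraries.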

How the data were processed

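RNA-seq of GFP-sorted astrocytes from 3 brains gave 6 libraries. The authors deposited a table of RPKM values per gene, computed from reads of 36 bases. The submitters' processing notes name bcl2fastq 1.8.4, CASAVA 1.8.2 and the mm9 build, and the program and strand setting used for counting are not given in the sources used here. Read numbers were recovered from the steps of the deposited RPKM values, and serve only to state precision. A value counted as whole where an integer number of reads gives the printed decimals exactly; 99.8% to 100% of the values used did at the depth taken, and at most 66.1% did at any depth tried more than 5% below it.

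The values were transformed as log2(RPKM + 1), rows with a mean of at least 1 RPKM were kept, and layers were compared in limma 3.58.1 (R 4.3.3; lmFit, eBayes with trend) with the brain as a block. Libraries of the same brain deviated together (r = 0.42, 0.33 and 0.34 across genes for brains 1, 2 and 3, against −0.20 to −0.16 between brains), so that the replicate numbers pair them. Adjusted p-values are by Benjamini-Hochberg over 13999 rows. The script was tested on simulated data.

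The members, gene lists and tests were chosen with earlier results of these data known. Values in every library are given for members that passed, the 10 members with the highest mean, the 5 largest rises and the 5 largest falls among tested members that moved one way in 3 brains, Por, Cyp27a1 and Cyp4f15; of the pathway lists the gene with the highest mean is named. Cyp2j8 and some others fall outside this rule and were picked with their values in view. Alternatives were other pseudocounts, filters, scalings, a length correction, limma without the trend, no block and leaving out each brain. Sequences were read from GENCODE transcripts on GRCm38 with Biopython 1.88, and were never joined to the coordinates of the table. Figures were drawn with matplotlib 3.10.9. Some marker genes are not reported here and were left out of the marker sums.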

Additional observations from a re-analysis of the deposited data

How the results depend on the processing

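In the main fit 2 members passed (0 higher and 2 lower in ULAs), and 0 did when the replicate block was left out. When rows of low RPKM were kept, 0 members passed, as did 0 of all 27963 rows (limma). In that fit 13 of the 84 members tested had an unadjusted p under 0.05. The share of all rows at this threshold was not counted there, so the 13 cannot be set against a background. The number of members that passed was 1 in limma without the trend and 4 after quantile normalization (2 higher). It was also 4 at an adjusted p under 0.1 (2 higher), and the length correction gave 1 higher call. Leaving out 1 brain gave 1 to 4 members in all, 0 to 2 of them higher and 1 to 3 lower, with 1 (Cyp27a1) without brain 1, 4 without brain 2 (Cyp4f15 and Ephx1 added) and 3 without brain 3 (Ephx2 added). Cyp2j9 (log2 fold change −0.53) missed the threshold without the replicate block, with no filter and without the trend, and at −0.54 without brain 1, and leaving out a brain gave values of −0.56 to −0.50. Cyp27a1 (−1.28) missed it without the replicate block and with no filter, and passed under the other 9 of 11 alternatives. The direction turned for Cyp2d22 without brain 1 (−0.0113, and up to 0.1324 without brain 2) and for Por without brain 3 (−0.0493, and up to 0.1948 without brain 2). The median of the members was 0.0047 with no filter and 0.0505 at a minimum mean of 5 RPKM. Among the pathway genes, 1 passed after quantile normalization (Ptgs1, 1 higher) and 0 to 2 when a brain was left out (Abca1 higher and Cpox lower, both without brain 3; 0 to 1 in each direction). Of the 164 values for named genes under the alternatives, 150 kept their direction and side of the threshold, 6 lost a call, 6 gained one and 2 reversed. Over all rows, the 228 calls became 41 without the replicate block, 144 without the trend and 1113 without brain 3. With 3 libraries per layer and 19.7 to 29.6 M reads, members under 1 RPKM rest on few reads.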
